A study of Mus musculus with 7 samples.

Results

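Transcripts of 6 genes of B cells and of mucosal IgA transport were measured in the nasal tissue of mice that had inhaled diesel exhaust particles (DEP) for 4 or 8 weeks. The genes were Cd79a, Cd79b, Ms4a1, Mzb1, Pou2af1 and Pigr, 6 of the 32095 genes or transcripts on the array, and they were found through the RefSeq transcript that each probe was designed for. Pigr was measured by 2 probes and each of the others by 1, so that the 6 genes rested on 7 of 39429 probes. Cd79a was not bright enough to be tested. The other 5 genes were tested among 20635 genes or transcripts.

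The mice were female BALB/c animals, 6 weeks old, and the DEP groups inhaled 100 µg/m3 DEP, suspended in saline and given as a nebulized mist, while the control mice received saline in the same way. Tissue came from the nasal septum and turbinates. On each two-colour array the RNA of DEP-exposed tissue carried the dye Cy5 and that of control tissue the dye Cy3, on 4 arrays at 4 weeks and 3 arrays at 8 weeks. The study's methods do not say how many mice stood behind an array or whether control RNA was pooled, so the p-values measure the spread between arrays, which may be technical. The dyes were never exchanged, so a dye bias of a probe would enter every ratio at both times alike. All 4-week arrays lay on 1 slide and all 8-week arrays on another, so exposure time and slide cannot be told apart. Per array, the probes that stood well above background numbered 18475 to 25062 for DEP-exposed and 16818 to 26920 for control tissue. The log2 ratios over all tested probes correlated at 0.44 to 0.49 between 4-week arrays, 0.71 to 0.88 between 8-week arrays and 0.09 to 0.29 across the exposure times. The control channel of 4-week replicate 2 held some spots far brighter than those of the other arrays, so member counts are also given without that array. Single control values also stood apart on 4-week replicate 3 (Cxcr5, log2 intensity 8.20) and replicate 4 (Tnfrsf13b, 8.91).

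A B cell recognises antigen through a membrane immunoglobulin that has no signalling domain of its own and depends on the chains Cd79a and Cd79b to pass the signal into the cell. After activation B cells can become plasma cells, which in the lining of the nose and its glands secrete mostly IgA, joined into dimers by the J chain. The polymeric immunoglobulin receptor, encoded by Pigr, is made by the epithelium rather than by B cells. It binds such dimers at the basal side of the cell, carries them to the lumen and is cleaved there to release secretory IgA.

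Among the 5 tested members, Pigr, Cd79b, Ms4a1 and Pou2af1 were higher in DEP-exposed than in control tissue after 8 weeks, and none was lower. After 4 weeks Pigr, on the brighter of its 2 probes, and Pou2af1 were higher, while Cd79b and Ms4a1 were lower. The dimmer Pigr probe did not pass at 4 weeks (-0.05, limma adjusted p = 0.492). Over all genes tested, 20.4% were higher and 17.1% lower at 8 weeks, and 21.5% were higher and 16.7% lower at 4 weeks (limma, adjusted p at most 0.05). The counts of 4 of 5 at 8 weeks and of 2 of 5 in each direction at 4 weeks are to be read against these shares. Without 4-week replicate 2, 1 member was higher and 2 were lower at 4 weeks. With the ratios centred on the median of each array in place of loess normalisation, 2538 genes were higher and 6893 lower at 8 weeks, against 4214 and 3531, but the same counts of members passed. The log2 ratio of 3 members, Cd79b, Ms4a1 and Pigr, was higher at 8 than at 4 weeks in the test of the difference itself, and none was lower, against 15% and 16.1% of all genes. At the thresholds that the study's methods name, an unadjusted p of at most 0.01 and a fold change of at least 2, Pigr at 8 weeks was the only member that passed, against 1.31% of all genes at 4 weeks and 2.94% at 8 weeks. With the scanner software's processed signals Ms4a1 passed them as well at both times.

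**Figure D1:**
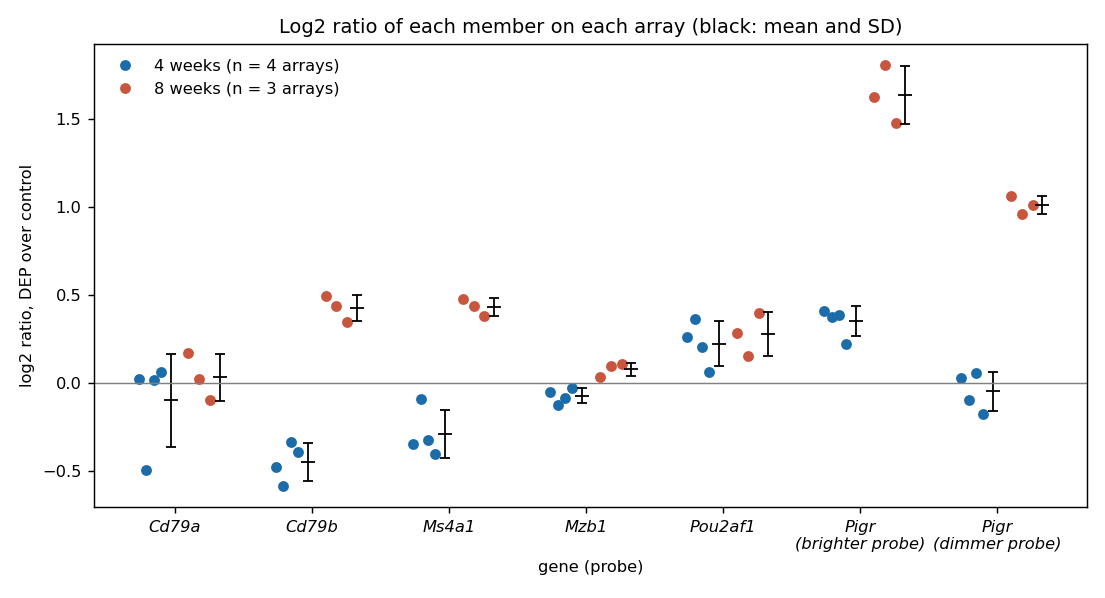
Log2 ratio of DEP over control for the 7 probes of the 6 genes, with 1 point for each array (blue, 4 weeks, 4 arrays; red, 8 weeks, 3 arrays) and the mean and SD in black. Cd79b and Ms4a1 lay below 0 on all 4-week arrays and above 0 on all 8-week arrays, and the brighter Pigr probe reached 1.48 to 1.81 at 8 weeks.

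Pigr had the largest ratio of the members at 8 weeks. Its reference promoter is shown because it holds the one motif match found in the 3 member promoters searched, those of Pigr, Cd79a and Pou2af1, an E-box, the sequence bound by the USF transcription factors. The window runs from 250 bases before to 50 bases after the annotated start at chr1:130826434-130826733 on the forward strand of RefSeq GRCm38.p6, and the capitals mark the E-box.

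Pigr promoter: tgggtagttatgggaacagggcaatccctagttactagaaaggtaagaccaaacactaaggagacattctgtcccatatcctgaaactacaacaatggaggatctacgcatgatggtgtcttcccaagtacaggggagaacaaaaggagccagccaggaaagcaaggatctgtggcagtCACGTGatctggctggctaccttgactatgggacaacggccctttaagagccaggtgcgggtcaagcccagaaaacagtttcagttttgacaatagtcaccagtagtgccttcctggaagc

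The E-box CACGTG, which reads the same on both strands, began 71 bases before the start of Pigr and occurred in 7.15% of the 32851 promoter windows of the same length. The octamer ATGCAAAT, bound by the POU factors that work with Pou2af1, was in none of the 3 and in 1.74% of all windows, both strands searched. Likewise none of the 3 held the palindromic EBF motif (0.904% of all windows) or the interferon response motif (3.44%). The Pigr gene occupies bases 130826684 to 130852249 of chromosome 1 in that build.

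On the brighter Pigr probe the log2 ratio was 0.41, 0.38, 0.39 and 0.22 on the 4 arrays at 4 weeks and 1.63, 1.81 and 1.48 on the 3 arrays at 8 weeks. Every array lay above 0 and the groups did not overlap. Pigr was 1.27-fold higher in DEP-exposed tissue at 4 weeks (log2 ratio 0.35 ± 0.0852, SD, n = 4, limma adjusted p = 0.00438) and 3.11-fold higher at 8 weeks (1.64 ± 0.166, SD, n = 3, limma adjusted p = 4.58e-06). The log2 ratio at 8 weeks exceeded that at 4 weeks by 1.29 (SE 0.0966, limma adjusted p = 0.000114).

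The channels of the same probe show where the difference lay. Its log2 intensity in DEP-exposed tissue was 13.22, 13.01, 13.10 and 12.93 at 4 weeks and 14.28, 13.79 and 13.84 at 8 weeks, and in control tissue 12.81, 12.64, 12.71 and 12.71 at 4 weeks and 12.65, 11.98 and 12.36 at 8 weeks. The DEP level was thus above all its 4-week values at 8 weeks, by 0.91 on average, whereas the control level was 0.38 lower on average with overlapping arrays. These level shifts are a description, since the slide changed with the time.

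The second, dimmer Pigr probe gave a log2 ratio of 0.03, -0.10, 0.06 and -0.18 at 4 weeks and of 1.06, 0.96 and 1.01 at 8 weeks. At 8 weeks all its arrays were again above 0, with a 2.02-fold higher level in DEP-exposed tissue (log2 ratio 1.01 ± 0.0495, SD, n = 3, limma adjusted p = 1.75e-05). At 4 weeks the arrays lay on both sides of 0 (-0.05 ± 0.11, SD, n = 4, limma adjusted p = 0.492), so the probes differed in sign and only the brighter one passed. On both probes together the mean log2 ratio at 4 weeks was 0.15 (limma adjusted p = 0.0492). The difference between the times, 1.06 (SE 0.0813, limma adjusted p = 0.000124), passed on this probe as well, and here the control level was lower at 8 than at 4 weeks on every array, by 0.65 on average.

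**Figure D2:**
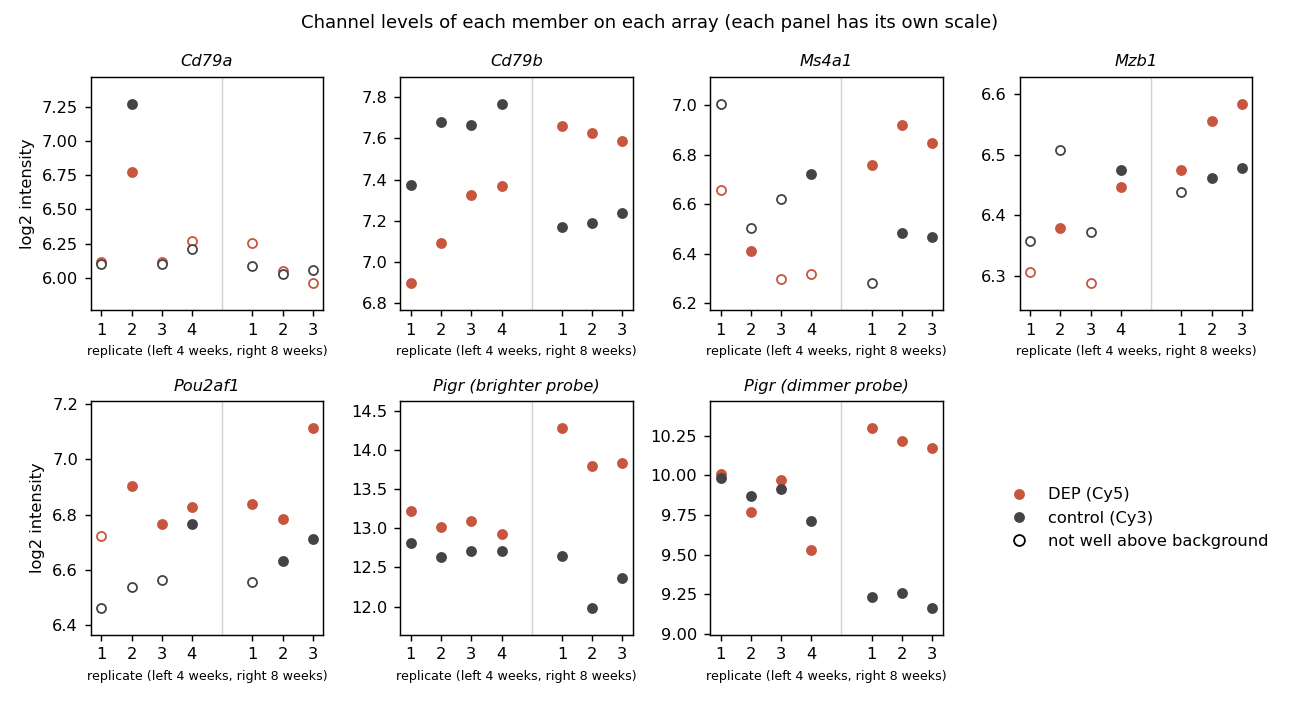
Log2 intensity of each member probe in DEP-exposed (red, Cy5) and control tissue (grey, Cy3) on each array, 4 weeks to the left and 8 weeks to the right of the line; open circles are values not well above background, and each panel has its own scale. In Cd79b and Ms4a1 the DEP level was 0.45 and 0.42 higher and the control level 0.42 and 0.30 lower at 8 than at 4 weeks.

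Cd79b, whose product is the second signalling chain of the B cell receptor, lies on chromosome 11 at 106311341 to 106314562. Its log2 ratio was -0.48, -0.59, -0.34 and -0.40 at 4 weeks and 0.49, 0.44 and 0.35 at 8 weeks. All 4-week arrays were below 0 and all 8-week arrays above. Cd79b was 1.37-fold lower in DEP-exposed tissue at 4 weeks (log2 ratio -0.45 ± 0.108, SD, n = 4, limma adjusted p = 0.000714) and 1.34-fold higher at 8 weeks (0.43 ± 0.0726, SD, n = 3, limma adjusted p = 0.0017). The ratio differed between the times by 0.88 on the log2 scale (SE 0.0833, limma adjusted p = 0.000329).

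The probe of Cd79b exceeded its background clearly on each of the 7 arrays, in DEP-exposed and control tissue alike. Its log2 intensity ran from 6.90 to 7.37 in DEP-exposed and from 7.38 to 7.77 in control tissue at 4 weeks, and from 7.59 to 7.66 in DEP-exposed and from 7.17 to 7.24 in control tissue at 8 weeks. The order of the channels was reversed, with no overlap at either time. In a whole tissue fewer cells of a type and less RNA per cell cannot be told apart, and this holds for every member.

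Ms4a1 encodes CD20, a surface protein of B cells that is lost in plasma cells, and lies on chromosome 19 at 11249679 to 11266149. Its log2 ratio was -0.35, -0.09, -0.32 and -0.40 at 4 weeks and 0.48, 0.44 and 0.38 at 8 weeks. As for Cd79b, all 4-week values were below 0 and all 8-week values above. Ms4a1 was lower in DEP-exposed tissue at 4 weeks (log2 ratio -0.29 ± 0.137, SD, n = 4, limma adjusted p = 0.00718) and 1.35-fold higher at 8 weeks (0.43 ± 0.05, SD, n = 3, limma adjusted p = 0.00225), a difference of 0.72 (SE 0.0902, limma adjusted p = 0.00111). The size of the 4-week difference is poorly set, since the probe was well above background on 1 of 4 arrays in either channel at 4 weeks, and on 3 of 3 in the DEP and 2 of 3 in the control channel at 8 weeks. With the scanner software's own processed signals the values were -1.08 at 4 weeks and 1.44 at 8 weeks, both past the threshold.

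Cd79a, the partner chain of Cd79b, lies on chromosome 7 at 24897497 to 24901858 and could not be followed. Its probe was well above background only on 4-week replicate 2, in both channels. The log2 ratio there was -0.49, against 0.02, 0.02 and 0.06 on the other 4-week arrays and 0.17, 0.02 and -0.10 at 8 weeks. No fold is given at 8 weeks, where neither channel was well above background on any array.

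Pou2af1 encodes a coactivator that binds octamer factors at immunoglobulin promoters and is needed for germinal centres. It lies on chromosome 9 at 51213690 to 51240079. The log2 ratio was 0.26, 0.37, 0.21 and 0.06 at 4 weeks and 0.28, 0.15 and 0.40 at 8 weeks, all above 0 and overlapping between the times. Pou2af1 was 1.17-fold higher in DEP-exposed tissue at 4 weeks (log2 ratio 0.22 ± 0.127, SD, n = 4, limma adjusted p = 0.0278) and 1.21-fold higher at 8 weeks (0.28 ± 0.123, SD, n = 3, limma adjusted p = 0.0212), and the difference was 0.05 with a 95% interval from -0.17 to 0.28 (limma adjusted p = 0.701). The probe was well above background on 3 of 4 DEP and 1 of 4 control arrays at 4 weeks. At 8 weeks it was so on 3 of 3 DEP and 2 of 3 control arrays, so the folds are poorly set. Both calls were marginal. Leaving out 4-week replicate 1, 2 or 3 brought the 4-week adjusted p to 0.0701, 0.112 and 0.0669, and leaving out 8-week replicate 1 or 3 brought the 8-week adjusted p to 0.0732 and 0.109 (limma). With processed signals the log2 ratios were 0.99 and 0.80.

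Mzb1 encodes a chaperone of the endoplasmic reticulum in marginal zone B cells and plasma cells that helps assemble immunoglobulin, and lies on chromosome 18. Its probe was printed on 10 spots of each array. It was well above background on 2 of 4 DEP and 1 of 4 control arrays at 4 weeks. At 8 weeks it was so on 3 of 3 DEP and 2 of 3 control arrays. The size of its ratios is therefore poorly set. The log2 ratio was -0.05, -0.13, -0.09 and -0.03 at 4 weeks and 0.04, 0.09 and 0.11 at 8 weeks. All arrays were again below 0 at 4 weeks and above 0 at 8 weeks, with values far nearer to 0 than those of Cd79b. Neither passed: the mean was -0.07 ± 0.0429 (SD, n = 4) with a 95% interval from -0.17 to 0.02 and a limma adjusted p of 0.203 at 4 weeks, and 0.08 ± 0.0373 (SD, n = 3) with an interval from -0.03 to 0.19 and a limma adjusted p of 0.247 at 8 weeks. The difference was 0.15 (limma adjusted p = 0.113). With processed signals the 8-week log2 ratio was 0.36 (limma adjusted p = 0.00765) and the difference 0.41 (limma adjusted p = 0.0142).

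**Figure D3:**
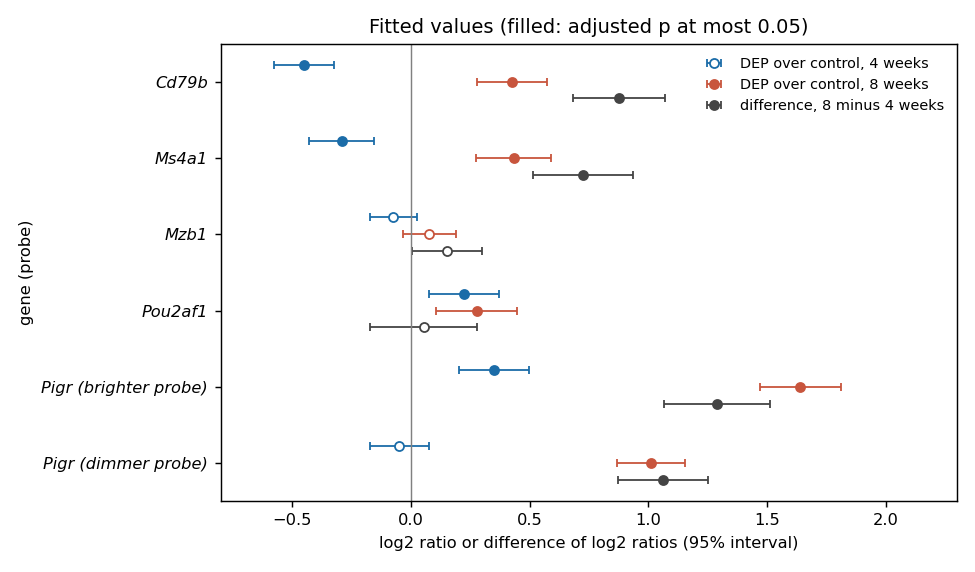
Fitted log2 ratio of DEP over control at 4 weeks (blue) and 8 weeks (red) and their difference (grey) for the 6 tested member probes, with 95% intervals; filled points passed an adjusted p of at most 0.05. The differences of Cd79b, Ms4a1 and both Pigr probes lay wholly above 0.5, and that of Pou2af1 ran from -0.17 to 0.28.

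The listed genes around the members were described by the same test, and their counts are to be read against the shares given above. Of 15 tested B cell genes, 3 were higher and none lower at 4 weeks, and 6 were higher and 1 lower at 8 weeks, with a median log2 ratio of -0.01 and 0.25 against 0.00 and 0.01 over all genes. Without 8-week replicate 1 or 2, 3 in place of 6 were higher at 8 weeks, and without 4-week replicate 1, 1 was lower at 4 weeks. Cr2, a complement receptor of B cells, was 1.38-fold higher at 8 weeks (limma adjusted p = 0.0011) and 1.12-fold higher at 4 weeks (limma adjusted p = 0.0481), the latter lost when any of 6 arrays was left out (limma adjusted p up to 0.187). Cd22, an inhibitory coreceptor, was higher at both times, with log2 ratios of 0.67 and 0.73 (limma adjusted p = 0.00082 and 0.001). Fcmr, an IgM receptor, went the other way, with -0.78, -1.12 and -0.91 at 8 weeks (1.92-fold lower, limma adjusted p = 6.68e-05). The defining B cell genes Pax5, Tnfrsf13c and Bank1 were well above background on none of the 4 DEP arrays at 4 weeks and on all 3 at 8 weeks, and in control tissue on at most 1 array at either time. Transcripts of the immunoglobulin constant regions could not be matched by the RefSeq accessions and were not analysed here.

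Of 17 genes of B cell receptor signalling, 2 were higher and 5 lower at 4 weeks, and 2 were higher and 1 lower at 8 weeks. Leaving out single arrays gave 1 to 2 higher at either time (1 at 4 weeks without 4-week replicate 2 or 3 or 8-week replicate 2, and 1 at 8 weeks when any single array of that time was left out), 3 lower at 4 weeks without 4-week replicate 2 or 4, and 3 lower at 8 weeks without 4-week replicate 1. Bcl10, an adaptor that links the receptor to NF-κB, followed the same signs as Cd79b, with -0.40, -0.72, -0.65 and -0.52 at 4 weeks and 0.29, 0.44 and 0.49 at 8 weeks (limma adjusted p = 0.000524 and 0.0048). Blnk, the linker downstream of Cd79a and Cd79b, was lower at 4 weeks, with a log2 ratio of -0.46 (limma adjusted p = 0.00151). Prkcb, the kinase of the same pathway, was lower at both times, with -0.30 and -0.37 (limma adjusted p = 0.00629 and 0.00468). Nfatc1 was higher at 4 weeks, with 0.60 (limma adjusted p = 0.000623), but did not pass as the mean of its probes.

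Of 11 plasma cell genes, 2 were higher and 4 lower at 4 weeks, and 4 were higher and none lower at 8 weeks. The median log2 ratio of the list was -0.16 at 4 weeks and 0.04 at 8 weeks, against 0.00 and 0.01 over all genes. At 8 weeks 8 of the 11 were above 0, so the genes named below do not stand for the whole list. Without 4-week replicate 2 or 3, 1 was higher at 4 weeks, and without 8-week replicate 1, 1 was lower at 8 weeks. Jchain, whose product joins IgA into the dimers that Pigr carries, gave -0.17, -0.19, -0.35 and -0.26 at 4 weeks and 0.77, 0.82 and 0.91 at 8 weeks. The values were below 0 at 4 weeks and above 0 at 8 weeks on every array, as in Cd79b and Ms4a1. Jchain was 1.18-fold lower at 4 weeks (limma adjusted p = 0.00766) and 1.78-fold higher at 8 weeks (limma adjusted p = 3.46e-05). Cd38, a surface enzyme of plasma and other immune cells, was 2.17-fold higher at 8 weeks (limma adjusted p = 2.82e-05). Derl3, part of the pathway that removes misfolded proteins from the endoplasmic reticulum, was 1.81-fold higher at 4 weeks and 1.70-fold higher at 8 weeks (limma adjusted p = 2.27e-05 and 5.93e-05). Tnfrsf13b, a receptor for the survival factors of B and plasma cells, was 2.22-fold higher at 8 weeks (limma adjusted p = 0.0239), a call lost when any of the 3 arrays of that time was left out (limma adjusted p up to 0.0946). Its 8-week values were close together, at 1.18, 1.09 and 1.18. At 4 weeks replicate 4 gave -1.74 against 0.10, 0.02 and -0.24, which widened the spread that both times share in the fit.

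Pou2f2, the octamer factor of B cells that Pou2af1 joins, gave 1.15, 1.25 and 1.82 at 8 weeks (2.65-fold higher, limma adjusted p = 0.000191), and the other tested octamer factor passed at neither time. Without 4-week or 8-week replicate 3, 1 of these 2 factors was higher at 4 weeks. Of 15 genes of IgA induction, homing and transport, 2 were higher and 2 lower at 4 weeks, and 3 were higher and 2 lower at 8 weeks. Without 4-week replicate 1, 2 or 3, 1 was higher at 4 weeks. At 8 weeks none was lower without 8-week replicate 2, and 1 was without 8-week replicate 1 or 4-week replicate 2, 3 or 4. Ccl28, the epithelial chemokine that draws IgA plasma cells to mucosae, gave 0.75, 0.97 and 0.96 at 8 weeks (1.86-fold higher, limma adjusted p = 0.000185). Madcam1, the vascular ligand for gut-homing lymphocytes, was 1.46-fold higher at 8 weeks (limma adjusted p = 0.00401). Rab11a, a small GTPase of the recycling endosome through which Pigr passes, was lower, with -0.37 at 4 weeks (limma adjusted p = 0.00974) and -0.29 at 8 weeks (limma adjusted p = 0.0462, with up to 0.242 when 1 array was left out). Fcgrt, the neonatal IgG receptor, was 1.29-fold lower at 8 weeks (limma adjusted p = 0.0129), a call lost without 8-week replicate 2 (limma adjusted p = 0.0923).

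Of 12 tested genes that act on Pigr transcription, 1 was higher and 5 lower at 4 weeks, and 2 were higher and 1 lower at 8 weeks, or 2 lower without 4-week replicate 3. Usf2, a USF factor that binds E-boxes, was 1.68-fold higher at 4 weeks and 1.53-fold higher at 8 weeks (limma adjusted p = 8.11e-05 and 0.000387), the latter not passing as the mean of its probes. The difference of Usf2 between the times did not pass (-0.14, limma adjusted p = 0.261). Usf1, the other USF factor of the list, passed at neither time (-0.22 and -0.30, limma adjusted p = 0.17 and 0.129). The part of these factors in the Pigr values was not tested. Relb, an NF-κB subunit, was lower at 4 weeks (-0.46, limma adjusted p = 0.000975) and higher at 8 weeks (0.53, limma adjusted p = 0.000894), whereas the subunit Rela was lower at both (-0.37 and -0.44, limma adjusted p = 0.000945 and 0.000789). Il1b, a cytokine that raises Pigr in epithelial cells, was 1.87-fold lower at 4 weeks (limma adjusted p = 1.62e-05).

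**Figure D4:**
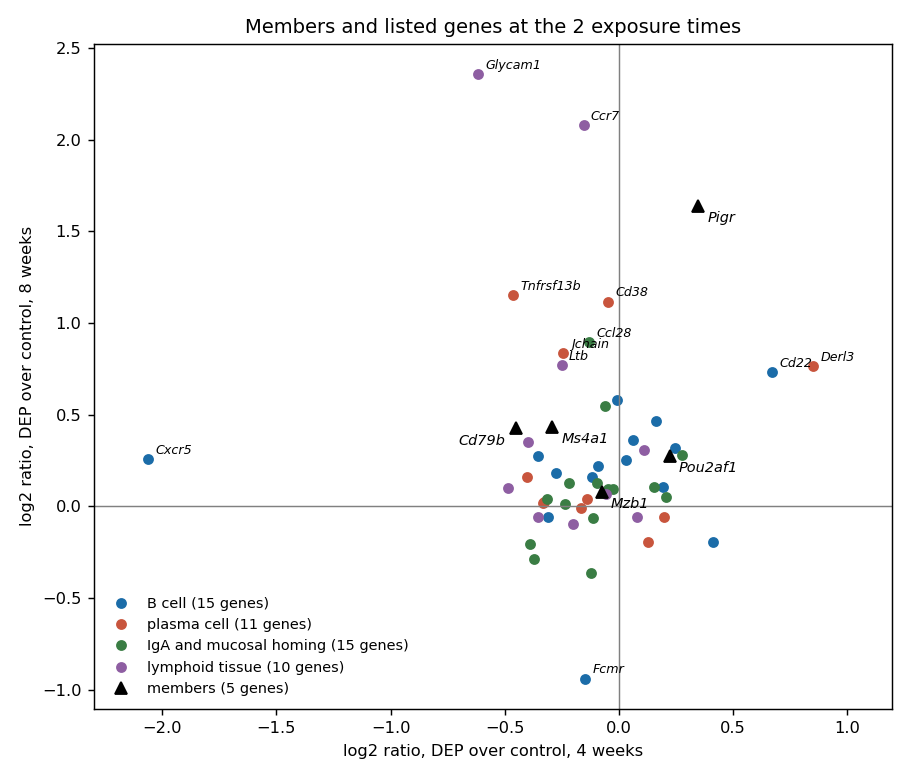
Log2 ratio of DEP over control at 4 weeks (x axis) against 8 weeks (y axis) for the 5 tested members (triangles) and the tested genes of 4 lists (circles). Glycam1 and Ccr7 stand highest at 8 weeks, and Cxcr5 is far to the left through 2 control spots on the 4-week arrays.

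Genes of lymphoid tissue and markers of other cell types were examined beside the members, and the part of those that changed in the members' values was not tested. Of 10 lymphoid tissue genes, none was higher and 6 were lower at 4 weeks, and 5 were higher and none lower at 8 weeks, the same signs as Cd79b and Ms4a1. Without 8-week replicate 2, 3 in place of 5 were higher at 8 weeks, and without 4-week replicate 1, 1 was higher at 4 weeks. Glycam1, a ligand for lymphocyte homing on high endothelial venules, gave -0.47, -0.60, -0.62 and -0.78 at 4 weeks and 2.50, 2.35 and 2.22 at 8 weeks (5.12-fold higher, limma adjusted p = 1.56e-06). Ccr7, which guides lymphocytes into lymphoid tissue, was 4.23-fold higher at 8 weeks (limma adjusted p = 1.22e-06). Ltb, a cytokine that organises lymphoid tissue, was lower at 4 weeks (-0.25, limma adjusted p = 0.0126) and higher at 8 weeks (0.77, limma adjusted p = 0.000115), the former lost without 4-week replicate 2 (limma adjusted p = 0.0579). Selp, the P-selectin of endothelium and platelets, was lower at 4 weeks (-0.48, limma adjusted p = 0.000241).

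Of 11 T cell genes, 2 were higher and 2 lower at 4 weeks, and 4 were higher and none lower at 8 weeks. At 4 weeks 1 was higher without replicate 2, 3 or 4 of that time and 1 was lower without replicate 3 or 4. Cd5, found on T cells and a subset of B cells, was lower at 4 weeks (-0.43, limma adjusted p = 0.00394) and higher at 8 weeks (0.68, limma adjusted p = 0.000875). Cd4 was higher at both times (0.38 and 0.63, limma adjusted p = 0.0059 and 0.00116). Cd3d and Cd2 were higher at 8 weeks, with 0.29 and 0.27 (limma adjusted p = 0.0305 and 0.0203), each lost when either of 2 arrays was left out (limma adjusted p up to 0.149 and 0.0944). At 4 weeks Cd3d was not well above background on any DEP array and on 1 of 4 control arrays, so no fold is given. The summed T cell level on the log2 scale was 11.06 to 11.18 in DEP-exposed and 10.91 to 13.88 in control tissue at 4 weeks, and 11.19 to 11.75 and 10.99 to 11.10 at 8 weeks. The highest control value came from Lck on 4-week replicate 2, at 13.69 against 6.94 to 7.22 on the other 4-week arrays. The summed B cell level was 11.93 to 12.04 in DEP-exposed and 11.86 to 12.95 in control tissue at 4 weeks, the latter through Cxcr5 at 12.05 on that array, and 11.68 to 11.85 and 11.77 to 11.83 at 8 weeks. The summed plasma cell level was 13.97 to 14.20 in DEP-exposed and 14.19 to 14.37 in control tissue at 4 weeks. At 8 weeks it was 13.94 to 14.02 and 13.78 to 13.83, without overlap. Such a sum follows its brightest probes. The plasma cell genes that passed at 8 weeks, Jchain, Tnfrsf13b, Cd38 and Derl3, had mean DEP levels of 8.17, 8.80, 9.14 and 11.04 there. Other listed genes thus made up most of the sum, and a number of plasma cells cannot be read from it. Cxcr5 and Lck were picked after their values were seen.

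Of 5 tested marrow B progenitor genes none passed at either time. Leaving out 8-week replicate 1 left 1 higher at 8 weeks, and leaving out 4-week replicate 1 or 4 left 1 lower at 4 weeks. The brightest were Cxcl12, a chemokine that retains B progenitors in the marrow, with log2 ratios of -0.01 and -0.02 (limma adjusted p = 0.928 and 0.92), and Vpreb3, with 0.13 and -0.04 (limma adjusted p = 0.314 and 0.831). At 5 erythroid genes the signs ran against those of Cd79b, with 4 higher and none lower at 4 weeks and none higher and 5 lower at 8 weeks. Hbb-bt, a beta-globin gene with a near-identical neighbour, was 1.21-fold higher at 4 weeks and 1.71-fold lower at 8 weeks (limma adjusted p = 0.0056 and 6.68e-05). The alpha-globin genes Hba-a1 and Hba-a2, whose transcripts are nearly identical and may share a signal, were lower at 8 weeks, with -0.56 and -0.54 (limma adjusted p = 0.00174 and 0.0029), and Slc4a1, the red cell anion exchanger, was 1.76-fold lower (limma adjusted p = 1.82e-05). The summed erythroid level was 14.7 to 15.1 in DEP-exposed and 14.4 to 14.6 in control tissue at 4 weeks, and 15.2 to 15.3 and 15.8 to 15.9 at 8 weeks.

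Of 10 myeloid genes, 2 were higher and 3 lower at 4 weeks, and 2 were higher and 1 lower at 8 weeks. Itgam was higher at both times (0.77 and 0.67, limma adjusted p = 0.000155 and 0.000543), as was Siglech (0.77 and 0.58, limma adjusted p = 5.26e-05 and 0.000336). Cd14 was 2.62-fold lower at 4 weeks (limma adjusted p = 5.99e-06), and Mpo was lower at both (-0.74 and -1.26, limma adjusted p = 0.0139 and 0.0025). The summed myeloid level was 14.78 to 14.97 in DEP-exposed and 14.27 to 14.36 in control tissue at 4 weeks, and 15.13 to 15.38 and 14.68 to 14.81 at 8 weeks, a sum set mostly by the bright probes of Siglech and Itgam. Over the 10 genes the median log2 ratio was -0.13 and -0.09, with 4 genes above 0 at each time. Without 8-week replicate 3, 4 myeloid genes were higher at 8 weeks, and without 4-week replicate 1, 2 were lower. The markers that define the sampled tissue were present. Omp, the olfactory marker protein, had a log2 intensity of 16.8, 16.9, 16.7 and 16.9 in DEP-exposed tissue at 4 weeks. It was higher at 4 weeks (0.89, limma adjusted p = 3.95e-05) and lower at 8 weeks (-0.43, limma adjusted p = 0.00238), as was Gnal, the olfactory G protein (0.61 and -0.72, limma adjusted p = 0.000289 and 0.000211). Of 8 nasal tissue genes 4 were higher and none lower at 4 weeks, and 2 were higher and 5 lower at 8 weeks. When any single 8-week array was left out 1 was higher at 8 weeks, without 8-week replicate 1 or 2, 3 were lower at 8 weeks, and without 8-week replicate 1 or 3, 1 was lower at 4 weeks. Obp1a, an odorant-binding protein of nasal glands, was 2.83-fold higher at 8 weeks (limma adjusted p = 3.62e-05), and Adcy3, the cyclase of olfactory neurons, was 1.63-fold lower (limma adjusted p = 0.0443, with up to 0.226 when 1 array was left out).

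Pigr is made by glandular and surface epithelium. Of 13 genes of that epithelium, 4 were higher and 4 lower at 4 weeks, and 3 were higher and 5 lower at 8 weeks. At 8 weeks 1 was higher when any single array of that time was left out, and 2 or 1 were lower without 8-week replicate 2 or 3. Lpo, the lactoperoxidase of nasal glands, was 7.89-fold higher at 4 weeks (limma adjusted p = 1.73e-07) and 1.22-fold higher at 8 weeks (limma adjusted p = 0.0183, with up to 0.0865 when 1 array was left out). Muc5b, the gel-forming mucin of glands, was 2.90-fold lower at 8 weeks (limma adjusted p = 2.86e-05). Krt8, a keratin of simple epithelium, was lower at both times (-0.51 and -0.59, limma adjusted p = 0.0171 and 0.0172, the latter up to 0.11 when 1 array was left out), and Elf3, an epithelial transcription factor, higher at 4 weeks (0.50, limma adjusted p = 0.00415). The summed epithelial level, which follows the brightest probes, was 17.76 to 17.98 in DEP-exposed and 17.66 to 17.77 in control tissue at 4 weeks, and 17.30 to 17.52 and 17.41 to 17.55 at 8 weeks. The part of this epithelium in the Pigr values was not tested.

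The genes most like the members were ranked by the root mean square difference of their log2 ratio over the 7 arrays, among 20377 genes or transcripts with a value on every array. To the mean of the tested B lineage members Cd79b, Ms4a1, Mzb1 and Pou2af1, the nearest with a symbol were Krt84, a hair keratin (0.052), Coro1a, an actin regulator of leukocytes (0.059), and Afmid, an enzyme of tryptophan breakdown (0.059), beside 2 transcripts without a symbol. Within 0.1 lay 111 genes and within 0.2 lay 2298. To the brighter Pigr probe, the nearest 4 had no gene symbol, from 0.031 to 0.058, and the fifth was Ermn, a gene of myelinating cells (0.068). The study's network also lists Ermn as expressed in olfactory epithelium and olfactory supporting cells. Within 0.1 of Pigr lay 16 genes and within 0.2 lay 65.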

How the data were processed

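The authors deposited 1 Agilent Feature Extraction 10.10.1.1 file for each of 7 two-colour arrays, with median signal and background intensity per spot, processed intensity signals and a log10 ratio, which was not used. Per the labels Cy5 carried DEP and Cy3 control RNA. The normalisation and software that the study used afterwards were not applied. From the deposited intensities, background was corrected in R 4.3.3 with limma 3.58.1 (normexp, offset 50), with parameters fitted without spots marked as background outliers. Loess followed within arrays, with control spots at weight 0, and repeated spots were averaged. Levels were taken after Aquantile normalisation. Spots marked as non-uniform or population outliers were left out. Of 39429 probes, 28330 had a symbol in RefSeq GRCm38.p6, and the 25123 that passed on 3 or more of the 7 arrays, with at least 1 channel well above background, were tested. A gene was represented by its tested probe of highest mean intensity. All 7 arrays entered 1 limma fit with a mean per exposure time, and p-values were adjusted by Benjamini-Hochberg over all tested probes, at a threshold of 0.05. The number of arrays limits the precision. Replicate numbers were not taken as pairs. The scripts were tested on simulated data.

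The named genes were the members, from each list at most the 4 passing genes with the largest log2 ratio (where none passed, the 2 brightest), and the 5 genes most like the members. A B cell gene that the rule names is not reported here. The members, the lists and the background treatment were chosen with earlier results of these data known. Alternatives covered background, normalisation, filters, probes, tests and left-out arrays.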

Additional observations from a re-analysis of the deposited data

Results flagged for a closer look

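Of 40 log2 ratios examined at 4 weeks for a single array far from the other 3, 3 stood apart, where chance alone gives about 1 in 20. They were Cd79a at -0.49 on replicate 2, Mpo at -1.51 on replicate 4 and Hbb-bt at 0.34 on replicate 4.

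Of 26 differences between the 8-week and the 4-week log2 ratio, 19 passed the test of the difference itself (limma, adjusted p at most 0.05). Over all genes tested 15% were higher and 16.1% lower. The listed genes among the 26 had been named because they passed at 4 or 8 weeks. A high share was thus partly built in and says nothing of the whole lists. Among the members the differences that passed were Cd79b at 0.88, Ms4a1 at 0.72 and Pigr at 1.29 on the brighter and 1.06 on the dimmer probe. In the B cell list they were Cr2 at 0.30 and Fcmr at -0.79, and in B cell receptor signalling Bcl10 at 0.98, Blnk at 0.46 and Nfatc1 at -0.81. Among plasma cell genes they were Tnfrsf13b at 1.61, Cd38 at 1.16 and Jchain at 1.08, and the octamer factor Pou2f2 differed by 1.07. Of the mucosal and lymphoid tissue genes, Ccl28 differed by 1.02, Madcam1 by 0.61, Glycam1 by 2.97, Ccr7 by 2.23, Ltb by 1.02 and Selp by 0.58. The call of Tnfrsf13b was lost without any of the 3 arrays at 8 weeks (limma adjusted p up to 0.0718) and that of Cr2 without any of 4 arrays (up to 0.105). The Tnfrsf13b value of -1.74 on 4-week replicate 4 stood far from those of the other 4-week arrays, and without that array the difference was 1.19. Time and slide cannot be told apart in any of these differences.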

How the results depend on the processing

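Over 14 to 18 alternatives per value, the signs of Cd79b, Ms4a1, Mzb1 and Pigr held at both times and in the difference. For Pigr these alternatives used the brighter probe or the mean of its probes. The dimmer Pigr probe had the other sign at 4 weeks, at -0.05 (limma adjusted p = 0.492). With the methods' t-test, unpaired, the adjusted p was 0.0732 for Cd79b (-0.45), 0.196 for Ms4a1 (-0.29) and 0.0945 for Pou2af1 (0.22) at 4 weeks, and 0.158 for Pou2af1 (0.28) at 8 weeks. Paired within arrays it was 0.0793 for Ms4a1 (-0.29) and 0.107 for Pou2af1 (0.22) at 4 weeks, and 0.0811 for Cd79b (0.43), 0.0657 for Ms4a1 (0.43), 0.0619 for Pigr (1.64) and 0.163 for Pou2af1 (0.28) at 8 weeks. A background fitted on all spots gave Pou2af1 0.14 at 4 weeks (limma adjusted p = 0.155). Processed signals gave Mzb1 0.36 at 8 weeks and a difference of 0.41, reversed that of Pou2af1 to -0.18 and gave Cxcl12 0.031 at 4 weeks, and the cause was not tested. Leaving out single arrays gave Pou2af1 0.18 to 0.28 at 4 weeks, 0.22 to 0.34 at 8 weeks and a difference from -0.0061 to 0.12, Cxcl12 -0.092 to 0.064 at 4 weeks and -0.11 to 0.10 at 8 weeks, and Vpreb3 -0.082 to 0.011 at 8 weeks. The replicate numbers gave no sign of pairing the samples (correlations of same-numbered deviations -0.0067, -0.0077 and 0.017, others -0.051 to 0.067). With deviations from means of only 4 and 3 arrays, this check cannot exclude pairing. With the replicate block Pou2af1 did not pass (0.22 and 0.28, limma adjusted p = 0.0734 and 0.0658), no other member call changed, and the differences called over all genes fell to 1516 higher and 1697 lower. Counts over all genes moved as well. At 4 weeks 2714 were higher with the all-spot background, 2692 higher and 1682 lower with the t-test, and 2875 and 1846 with the paired one. At 8 weeks 2538 were higher and 6893 lower with median centring, which moved the median of all genes from 0.01 to -0.11, 2583 and 2251 with the t-test, and 231 and 157 with the paired one. Median centring left 1786 differences higher, and processed signals 5047 lower, with 1323 and 1448 genes past the study's thresholds at 4 and 8 weeks. Leaving out single arrays gave 2524 to 4630 higher and 1990 to 3933 lower at 8 weeks, and 1831 to 3395 higher and 2056 to 3484 lower differences, each lowest without 8-week replicate 2. Of the members, 1 in place of 2 was higher at 4 weeks with the all-spot background, either t-test, the block, the both-channel filter or without 4-week replicate 1, 2 or 3 (range 1 to 2), 0 were lower with the t-test and 1 with the paired one or the filter, and at 8 weeks 0 were higher with the paired t-test and 2 with the filter, which tested fewer members. Signal over background limits Cd79a, Ms4a1, Mzb1 and Pou2af1 most. Of 1579 recomputed values of other named genes, 1427 kept sign and side of the threshold.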
